A study of Mus musculus with 3 samples.

Results

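The T-cell costimulation and adhesion receptors are 10 mouse genes, Cd2, Cd5, Cd6, Cd7, Cd28, Ctla4, Icos, Sh2d1a, Cd80 and Cd86, followed here in a comparison of liver RNA with spleen RNA. Every probe that the platform annotation assigns to 1 of these symbols was taken, which gave 18 of the 16281 probes in the deposited table, for 10 of its 10698 named genes. All 3 arrays gave a value for 16 of the 18. The other two are a Cd5 probe with values on 2 arrays and a Cd6 probe with a value on 1. Each of the 3 two-colour oligonucleotide arrays carried a purchased mouse liver total RNA in Cyanine-5 and a purchased mouse spleen total RNA in Cyanine-3, both turned into cRNA with 1 round of amplification. The same catalogue product served for each tissue on every array. The labels give no strain, genotype, sex, age, treatment or number of animals, and no array exchanges the dyes, so dye and tissue cannot be told apart. The arrays were treated as repeats of 1 pair of RNAs, and p-values reflect only how far repeat arrays scattered, possibly for technical reasons.

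A T cell that meets antigen needs a second signal besides its antigen receptor. CD28 gives that signal when it binds CD80 or CD86 on an antigen-presenting cell, CTLA-4 competes for the same ligands and restrains the cell, and ICOS acts on cells that are already activated. CD2 holds the T cell to its partner, CD5 dampens antigen receptor signalling, CD6 binds ALCAM, CD7 is an immunoglobulin-type surface receptor of T and NK cells, and SAP, the product of Sh2d1a, couples SLAM-family receptors to the kinase Fyn. Spleen is a lymphoid organ with large T-cell areas, while liver is mostly hepatocytes with a smaller resident and circulating lymphocyte population.

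The deposited values are log2 ratios of the channels, with liver taken as the numerator, a likely direction that no label states. A negative value therefore means lower in liver. The array titles name spleen before liver, the opposite order, and do not say which channel is the numerator. The reading rests on marker genes: the median of the measured liver probes was 4.94, 4.96 and 4.88 on arrays 1, 2 and 3, and that of the measured spleen probes was -1.38, -1.33 and -0.9999. The liver median stands on 2, 4 and 2 measured probes, because 6, 4 and 6 of the 8 liver probes were listed at exactly 0, which was taken as no measurement. The 3 arrays correlated with Pearson's r of 0.933 to 0.948 across the 14122 probes measured on all of them, and the ratios of array 3 had a narrower spread (SD over probes 0.900) than those of arrays 1 and 2 (1.00 and 1.01). Probes are not independent replicates, so these r values describe the arrays only.

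The clearest differences between the tissues were in 4 genes, all lower in liver: Sh2d1a, Cd28, Cd5 and Cd2. Their probe means lay between -2.74 and -1.16 for the 7 probes that passed the test at 2-fold or more. Ctla4 added an eighth probe at a small ratio, and the probes of Cd6, Cd7, Icos, Cd80 and Cd86 did not pass. With limma, every one of the 14122 probes was tested for a mean log2 ratio other than 0, and a probe passed at a Benjamini-Hochberg adjusted p under 0.05. Of the 16 member probes, 8 passed toward spleen and 0 toward liver, against 26.7% and 23.5% of all tested probes. At 2-fold or more toward spleen there were 7 member probes, against 9.13% of all probes. At an unadjusted limma p under 0.05, also 0 member probes lay toward liver. The median of the 16 member means was -0.46, against 0.02 over all tested probes.

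**Figure D1:**
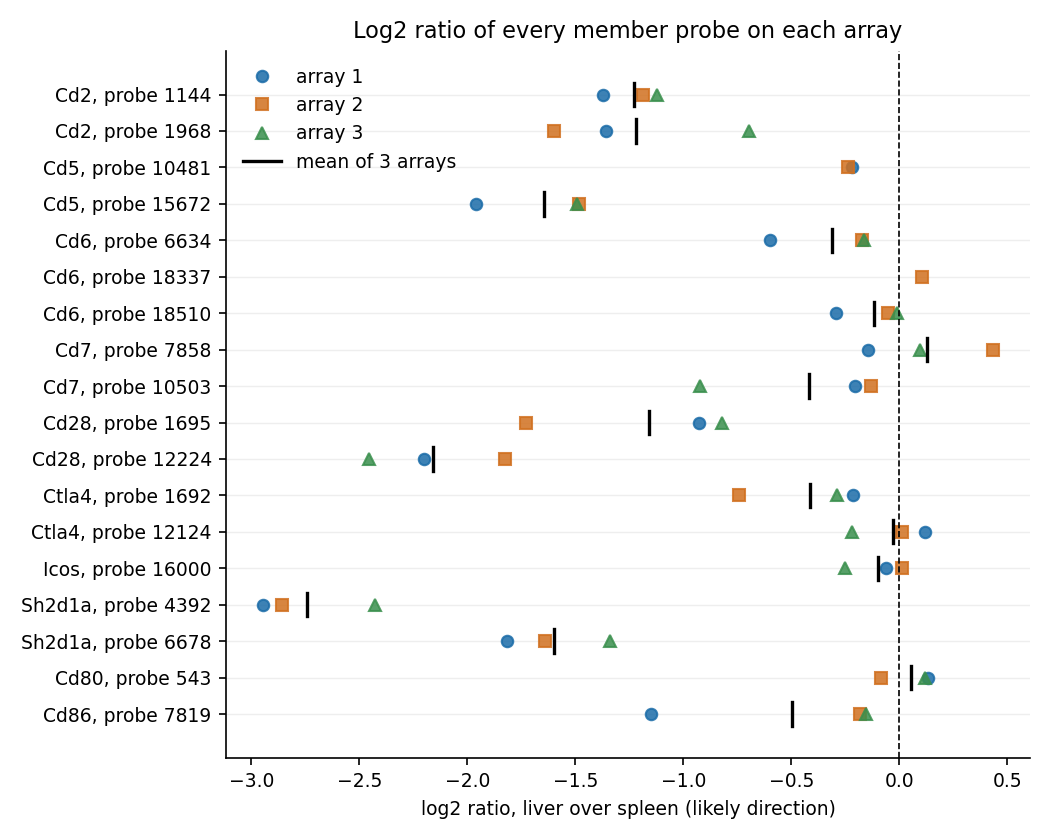
Log2 ratio of liver over spleen (x axis, likely direction) for each of the 18 member probes (y axis), with 1 marker per array and a bar at the mean of probes measured on 3 arrays. Both probes of Sh2d1a, Cd28 and Cd2 and 1 probe of Cd5 lie left of -0.69 on every array, and most other probes lie near 0.

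Sh2d1a had the lowest liver-to-spleen ratio of the members. Probe 4392 read -2.95, -2.86 and -2.43 on arrays 1, 2 and 3, a mean of -2.74 ± 0.28 (SD, n = 3) and 6.70-fold lower in liver, with an adjusted p of 4.85e-05 by limma. That mean ranked 71 from the lowest among the 14122 probes. The second probe, 6678, read -1.82, -1.64 and -1.34, a mean of -1.60 ± 0.24 (n = 3) and 3.03-fold lower in liver (adjusted p = 0.000205, limma). Every array value of both probes was below 0, and the array values of the 2 probes did not overlap. In these whole-tissue RNAs, fewer cells of a type and less of a transcript per cell cannot be told apart, and this holds for every member.

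Cd28, the costimulatory receptor, was lower in liver on both of its probes. Probe 12224 read -2.20, -1.82 and -2.46 on arrays 1, 2 and 3, a mean of -2.16 ± 0.32 (n = 3) and 4.47-fold lower in liver (adjusted p = 0.000136, limma). Probe 1695 read -0.93, -1.73 and -0.82, a mean of -1.16 ± 0.49 (n = 3) and 2.23-fold lower in liver (adjusted p = 0.00472, limma). The 2 probes were far apart on arrays 1 and 3 and close together on array 2.

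The CD28 relatives Ctla4 and Icos, which follow Cd28 directly on chromosome 1 in the RefSeq gene order, had ratios much nearer to 0. Ctla4 probe 1692 read -0.21, -0.74 and -0.29, a mean of -0.42 ± 0.29 (n = 3) and 1.33-fold lower in liver, which passed narrowly (adjusted p = 0.0419, limma). The call was lost without array 2 (mean -0.25, adjusted p = 0.135) and without array 3 (mean -0.48, adjusted p = 0.0682). Ctla4 probe 12124 read 0.12, 0.01 and -0.22, on both sides of 0, and did not pass (mean -0.03, adjusted p = 0.820). The 1 Icos probe read -0.06, 0.01 and -0.25 and did not pass either (mean -0.10 ± 0.14, adjusted p = 0.395). Its 95% interval by limma ran from 1.26-fold lower to 1.09-fold higher in liver, so a 2-fold difference lay outside it for this probe. That interval reflects only the scatter of repeat arrays. Whether this or any other probe near 0 had signal in either RNA was not tested, since channel intensities were not used.

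The ligands, carried by antigen-presenting cells, did not pass. The Cd80 probe read 0.13, -0.09 and 0.12, a mean of 0.06 ± 0.12 (n = 3, adjusted p = 0.628, limma), with a 95% interval from 1.12-fold lower to 1.21-fold higher in liver. The Cd86 probe read -1.15, -0.18 and -0.15, a mean of -0.50 ± 0.57 (n = 3, adjusted p = 0.107, limma), with an interval from 2.05-fold lower to 1.03-fold higher in liver. All 3 Cd86 values were below 0, but array 1 stood far from the other two, and the mean without it was -0.17. Of the macrophage and dendritic-cell markers, 6 of 8 probes passed toward spleen and 0 toward liver, with a median of -1.69 and a range from -2.91 to -0.34. The Cd68 and Itgax probes averaged -0.34 and -0.39 and did not pass, and Adgre1 at -0.36 passed narrowly (adjusted p = 0.0453, limma). Probes of the other genes in this list averaged between -2.91 and -1.40. Kupffer-cell markers, of which 2 genes were on the arrays, had 3 of 4 probes passing toward liver and a median of 0.90. The Cd5l probes averaged 0.82 and 0.97, and the Clec4f probes 3.18 and 0.05, the last not past the test. Of all tested probes, 26.7% passed toward spleen and 23.5% toward liver. The part of these cells in the ligands' ratios was not tested.

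Among the adhesion and scavenger-type receptors, Cd2 and Cd5 were lower in liver and Cd6 and Cd7 did not pass. Cd2 probe 1144 read -1.37, -1.19 and -1.12, a mean of -1.23 ± 0.13 (n = 3) and 2.34-fold lower in liver (adjusted p = 0.000216, limma). Cd2 probe 1968 gave nearly the same mean from more scattered arrays, with -1.36, -1.60 and -0.69, a mean of -1.22 ± 0.47 (n = 3, adjusted p = 0.00332, limma). Both probes were below 0 on all arrays.

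Cd5 was lower in liver on the probe measured throughout. Probe 15672 read -1.96, -1.48 and -1.49, a mean of -1.64 ± 0.27 (n = 3) and 3.13-fold lower in liver (adjusted p = 0.000238, limma). The other Cd5 probe, 10481, read -0.22 and -0.24 on arrays 1 and 2, was listed at 0 on array 3, and so was not in the test. In a fit that admits probes measured on at least 2 arrays it did not pass (adjusted p = 0.143, limma).

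Cd6, the neighbour of Cd5 on chromosome 19, did not pass on either tested probe. Probe 6634 read -0.60, -0.17 and -0.16, a mean of -0.31 ± 0.25 (n = 3, adjusted p = 0.0740, limma). Probe 18510 read -0.30, -0.05 and -0.01, a mean of -0.12 ± 0.15 (n = 3, adjusted p = 0.332, limma). Both were lowest on array 1, without which the means were -0.17 and -0.03, and the remaining Cd6 probe, 18337, had a single value of 0.11 on array 2. Cd7 probe 7858 read -0.15, 0.43 and 0.09 and averaged 0.13 ± 0.29 (n = 3, adjusted p = 0.444, limma). Cd7 probe 10503 read -0.20, -0.13 and -0.93 and averaged -0.42 ± 0.44 (n = 3, adjusted p = 0.0945, limma). Array 3 alone set that probe apart, and without it the mean was -0.17.

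**Figure D2:**
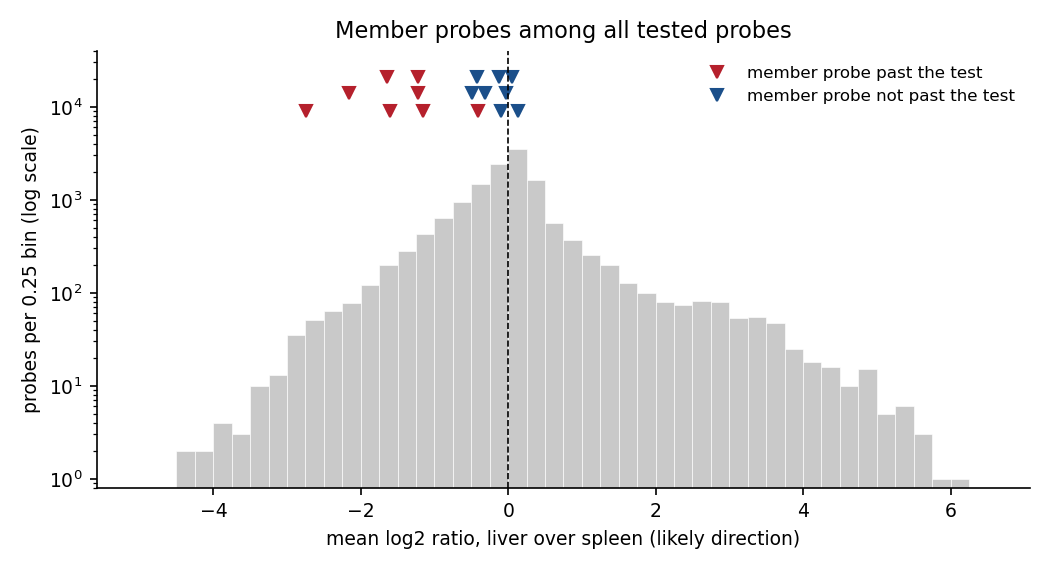
Histogram of the mean log2 ratio (x axis, liver over spleen, likely direction) of the 14122 tested probes, with a log-scaled count per bin (y axis) and triangles at the means of the 16 member probes, staggered in height only to keep them apart. The 8 probes past the test (red) reach down to -2.74, while the other 8 (blue) lie between -0.50 and 0.13.

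The RefSeq table of promoter windows, 250 bases before to 50 after a gene's start on GRCm38.p6, held 3 of the 10 genes. All 3 are shown, since they are the members in that table: Cd5, with 1 probe 3.13-fold lower in liver, Ctla4, with 1 probe that passed narrowly, and Cd80, which did not pass. The Cd5 window is chr19:10738925-10739224 on the minus strand, that of Ctla4 chr1:60908775-60909074 on the plus strand, and that of Cd80 chr16:38458683-38458982 on the plus strand. Capitals mark every exact match, on either strand, to 4 short motifs. They are TGTGGT, the Runx core, AGGAAG, which Ets factors bind, AGATAA, which GATA factors bind, and TATAAA, the TATA box. Shorter or variant forms of these motifs were not searched.
Cd5: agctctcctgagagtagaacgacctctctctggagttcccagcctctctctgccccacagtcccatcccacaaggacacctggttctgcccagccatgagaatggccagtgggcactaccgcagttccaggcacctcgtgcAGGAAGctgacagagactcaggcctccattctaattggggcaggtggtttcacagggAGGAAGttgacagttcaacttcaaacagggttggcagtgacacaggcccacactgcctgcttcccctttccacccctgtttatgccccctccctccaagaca
Ctla4: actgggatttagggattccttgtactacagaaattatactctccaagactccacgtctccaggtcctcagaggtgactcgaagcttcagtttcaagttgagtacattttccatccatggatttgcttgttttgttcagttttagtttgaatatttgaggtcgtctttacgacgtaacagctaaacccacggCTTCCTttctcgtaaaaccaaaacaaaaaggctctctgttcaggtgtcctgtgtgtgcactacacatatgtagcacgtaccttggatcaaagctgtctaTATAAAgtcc
Cd80: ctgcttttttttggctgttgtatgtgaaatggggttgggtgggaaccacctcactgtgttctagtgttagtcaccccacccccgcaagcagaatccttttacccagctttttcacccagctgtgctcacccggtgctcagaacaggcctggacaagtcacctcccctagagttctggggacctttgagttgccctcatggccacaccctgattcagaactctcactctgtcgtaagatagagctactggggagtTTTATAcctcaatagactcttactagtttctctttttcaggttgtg
Cd5 held the Ets letters at positions -109 and -52 from the start, and Ctla4 held them on the reverse strand at position -59. The TATA letters were found in Ctla4 at position 41 and, on the reverse strand, in Cd80 at position 5. No 2 matches overlapped, and the Runx and GATA letters were in none of the 3 windows. Of the 32851 promoter windows in the table, 35.4% held the Ets letters, 13.6% the TATA letters, 16.8% the Runx letters and 11.2% the GATA letters, so such matches are common and describe the sequences only.

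Probes of the same gene did not always give the same ratio. Pairs of probes were compared by the difference of their log2 ratios within each array, with limma over all 2902 pairs in the table, of which 38.0% differed at an adjusted p under 0.05. Among the 6 member pairs measured on all arrays, 1 differed, that of Sh2d1a. Its probe 4392 was lower than probe 6678 by -1.13, -1.22 and -1.09 on the 3 arrays, a difference of -1.15 ± 0.07 (n = 3, adjusted p = 0.00102, limma). This difference was steady across arrays, although the ratios of both probes shifted together from array to array.

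The Cd28 pair differed by 1.27, 0.10 and 1.63, probe 1695 minus probe 12224, which did not pass (mean 1.00 ± 0.80, adjusted p = 0.0561, limma). Without array 2 it did pass, at 1.45 with an adjusted p of 0.00202. The Cd7 pair differed by 0.55 ± 0.48 (adjusted p = 0.0917, limma) and passed without array 1, at 0.79 with an adjusted p of 0.0350. The pairs of Cd2, Cd6 and Ctla4 differed by -0.01 ± 0.42, -0.19 ± 0.10 and -0.39 ± 0.34, with adjusted p-values of 0.979, 0.216 and 0.122 by limma. When probes measured on at least 2 arrays were admitted, the Cd5 pair also differed, by 1.49 with an adjusted p of 0.00674.

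**Figure D3:**
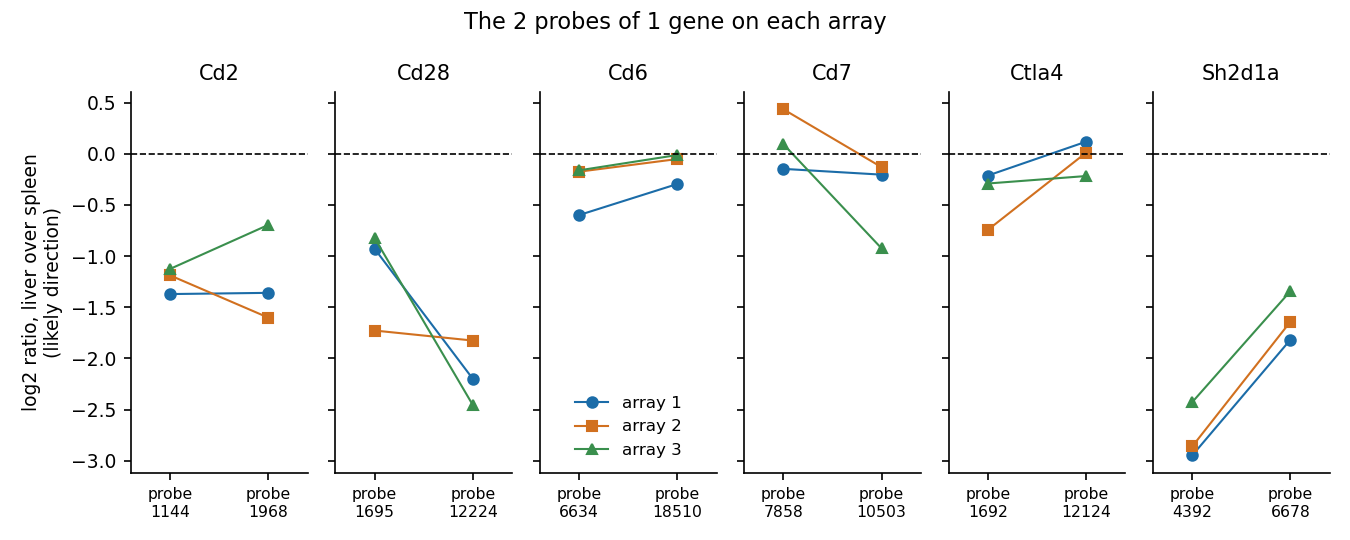
Log2 ratio of liver over spleen (y axis, likely direction) for both fully measured probes of 6 member genes (x axis), with a line per array. The 3 Sh2d1a lines run in parallel, while the Cd28 lines separate the probes on arrays 1 and 3 but not on array 2.

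With fully measured probes of a gene averaged on each array, Sh2d1a was lowest at -2.17 ± 0.26, followed by Cd28 at -1.66 ± 0.11, Cd5 at -1.64 ± 0.27 and Cd2 at -1.22 ± 0.27. These 4 genes passed limma over 9803 genes, with adjusted p-values between 5.12e-05 and 0.000610, against 27.4% of genes toward spleen. No member gene passed toward liver, against 25.3% of genes, nor did any at an unadjusted p under 0.05. The array ranges of Sh2d1a and Cd28 did not overlap, those of Cd28 and Cd5 did, and those of Cd5 and Cd2 did not. Below them came Cd86, Ctla4, Cd6, Cd7, Icos and Cd80, each overlapping its neighbour in this order. The Cd86 range also overlapped that of Cd2, through its value on array 1. All of these ranges depend on which probes were averaged. On its own, Sh2d1a probe 6678 ran from -1.82 to -1.34 and overlapped the averaged Cd28, Cd5 and Cd2. Cd5 rested on probe 15672 alone, and Cd2 probe 1968, at -1.60 on array 2, fell within the Cd5 range. How often the ranges of other genes overlap was not counted. Averaged over its 2 probes, Ctla4 was at -0.22 ± 0.16 and no longer passed (adjusted p = 0.0938, limma).

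Among other genes of costimulation and adhesion, more probes passed toward spleen than toward liver. Of 74 such genes listed, 50 had 83 probes in the test, of which 39 passed toward spleen, 7 toward liver and 37 did not pass, with a median of -0.26. These counts stand beside 26.7% of all tested probes toward spleen and 23.5% toward liver, as do those of each list. Among TNF-type costimulators, 3 of 13 probes passed toward spleen and 0 toward liver, a share toward spleen no higher than that of all probes. They were Cd27 at -3.07 ± 0.59, Tnfrsf18 (GITR) at -2.37 ± 0.24 and Cd40, a receptor of antigen-presenting cells, at -1.50 ± 0.83. Another Cd27 probe was at 0.15 ± 0.13 and the other Tnfrsf18 probes at -0.06 and 0.04, and these did not pass.

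Of the B7 and CD28 relatives, 4 of 9 probes passed toward spleen and 0 toward liver, with small ratios. Cd274 (PD-L1) averaged -0.94 ± 0.26, Vsir (VISTA) -0.58 ± 0.37 and Icosl, the ligand of ICOS, -0.51 ± 0.37 on 1 probe and 0.18 ± 0.10, not past the test, on another. Among partners of SLAM receptors and CD2, 9 of 15 probes passed toward spleen and 1 toward liver. Cd48, the ligand of CD2 in mouse, averaged -2.37 ± 0.72 and Pstpip1, which binds the CD2 tail, -1.12 ± 0.15 on 1 probe and -0.24 ± 0.25, not past the test, on another. The SLAM-family receptor Ly9 averaged -1.37 ± 0.62 on 1 probe and 0.25 ± 0.06 on another, both past the test in opposite directions.

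Partners of CD5, CD6 and CD7 gave 4 of 7 probes toward spleen and 2 toward liver. Cd72, a B-cell protein once proposed as a CD5 ligand, averaged -2.80 ± 0.12 and -2.75 ± 0.50 on its probes, and Lgals1 (galectin-1), which binds CD7 on human T cells, -1.29 ± 0.26 and -1.21 ± 0.14. Alcam, the ligand of CD6, was higher in liver at 0.41 ± 0.10. Adhesion molecules gave 6 of 11 probes toward spleen and 1 toward liver, led by the integrin chain Itgb2 at -2.19 ± 0.36, Icam2 at -1.71 ± 0.41 and the integrin chain Itga4 at -1.67 ± 0.27. Second probes of Itgb2 and Itga4 passed at -1.21 ± 0.27 and -1.02 ± 0.30, and the remaining Itgb2 probe was listed at 0 on every array. Pvr was at 0.44 ± 0.21 toward liver on 1 probe and at -0.06 ± 0.21, not past the test, on the other. Of the downstream signalling probes, 13 of 28 passed toward spleen and 3 toward liver. The lowest probes of the adaptors Grap2, Lcp2 and Lat were at -2.46 ± 0.44, -2.36 ± 0.41 and -2.14 ± 0.37. Other Grap2 probes were at 0.30 ± 0.07, past the test toward liver, and at -0.12 ± 0.18, not past it. The other Lcp2 probe passed at -1.79 ± 0.12, and the other Lat probes were at -0.79 ± 0.48, past the test, and at 0.10 ± 0.09, not past it. Il2 was at 0.62 ± 0.11, past the test toward liver, on 1 probe and at -0.04 ± 0.10, not past the test, on the other. The kinase gene Zap70 also passed toward liver, at 0.54 ± 0.04 on its 1 probe.

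**Figure D4:**
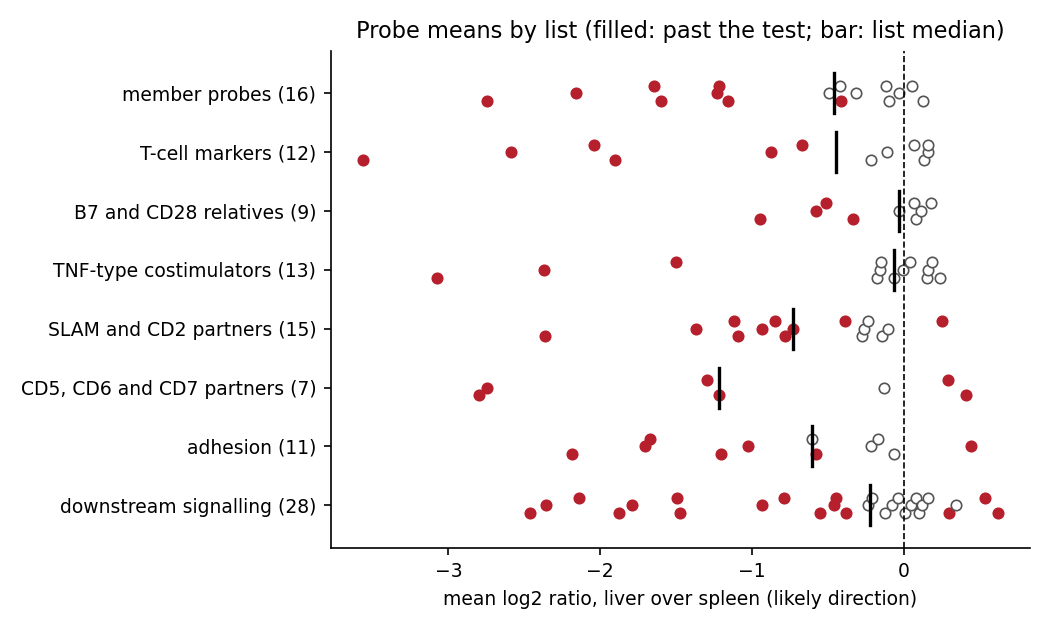
Mean log2 ratio (x axis, liver over spleen, likely direction) of each tested probe by gene list (y axis, number of probes in parentheses), filled where past the test, with a bar at each list's median. The member probes spread from -2.74 to 0.13 with a median of -0.46, and the medians of the other lists shown lay between -1.21 and -0.03.

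T-cell markers also held both probes far below 0 and probes near it. Of 12 tested probes of 8 marker genes, 6 passed toward spleen, 0 passed toward liver and 6 did not pass, with a median of -0.44 and a range from -3.57 to 0.16. Cd3d averaged -2.04 ± 0.04, while the 3 Cd4 probes were between -0.11 and 0.16 and did not pass. The 2 Cd8a probes averaged -3.57 ± 0.22 and -0.67 ± 0.19, and both passed. Of 5 B-cell marker probes, 3 passed toward spleen, with a median of -1.03. Their Cd22 and Cd79b probes, and the Cd3e probe among the T-cell markers, also belong to the spleen set that fixed the direction of the ratio, so their sign is no independent evidence of it. No marker probe of T or B cells passed toward liver. These counts stand beside 26.7% of all tested probes toward spleen and 23.5% toward liver. The part of T-cell content in the members' ratios was not tested.

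The probes with array values nearest to those of Sh2d1a probe 4392, by Euclidean distance over the 3 log2 ratios among 12257 named probes of other genes, belonged to Klrd1, Rhd, Lyz2, Ctla2a and Sla. Klrd1, a receptor chain of NK cells, was nearest at a distance of 0.149, with values of -2.83, -2.80 and -2.50. The others lay at distances between 0.236 and 0.259. The 3 arrays of 1 comparison give little to separate genes of similar mean. Within the list, Klrd1 is a gene of NK cells, Rhd of red cells and Lyz2 of myeloid cells.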

How the data were processed

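The deposited table holds 1 log2 ratio of the channels per probe and array. The authors' background correction, dye normalization and filters are not given in any source used here, nor is the log base, which was read from the deposited log2 values: each array's highest is the log2 of 100. Each column has a median of 0. Exact zeros (1414, 1098 and 1137 probes on arrays 1, 2 and 3) were taken as no measurement, and 14122 probes remained. Channel intensities were not used here, depth has no meaning for arrays, and the number of arrays limits the precision.

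Symbols came from the platform annotation and were checked by Entrez number in RefSeq: of 16281 probes, 13738 had 1 symbol, 52 several and 2491 none, and 13694 were found with 0 symbols changed. Tests were intercept-only limma 3.58.1 fits in R 4.3.3 (3.38 prior degrees of freedom, two-sided, Benjamini-Hochberg over all probes or pairs). On simulated data, 66.7% of the probes changed by 1 and 89.3% of those changed by 2 on the log2 scale were called over 14122 probes. The false share of the calls was 2.48%. Only a small part of the simulated probes was changed, with independent noise, so these rates need not hold for the data. Alternatives covered zeros kept, centring, scaling, filters, robust variances, averaged probes and each array left out. The members, the lists and the direction and marker genes were chosen with earlier results of these data known. Named genes are all members, the 5 nearest probes to the most extreme member probe, and up to 3 markers per cell type. From each list they are the 3 largest probes past the test and the largest opposite one. Zap70, the named macrophage and dendritic-cell markers, and other probes of the genes named from the pathway lists were added after their values were seen.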

Additional observations from a re-analysis of the deposited data

How the results depend on the processing

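No paired analysis was possible because each array is itself a comparison of both RNAs and the arrays form 1 group. The count of member probes toward spleen was 8 and ranged from 7 to 8 over the 9 alternatives of normalization, filter, variance or arrays, and was 7 with a 2-fold limit. The probe that left was Ctla4 probe 1692, whose adjusted p was 0.119 with exact zeros kept. Toward liver the count was 0 throughout. Genes with a member probe past the test numbered 5, and 4 to 5 under the same alternatives, a check added after the data were seen; with probes averaged 4 passed. Other genes of the pathway gave 7 probes toward liver, 2 to 4 without any 1 array, and 0 with a 2-fold limit, which left 23 of 39 toward spleen. Differing member pairs numbered 1, then 2 with exact zeros kept or with probes measured on at least 2 arrays, both of which admit the Cd5 pair, and 1 to 2 without any 1 array. No member probe past the test changed sign under these alternatives.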

Other observations

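Probes of 1 gene often fell on different sides of the test's thresholds in this table. Among all pairs of probes of 1 gene, 421 had at least 1 probe past the test toward spleen at 2-fold or more. The partner was also at 2-fold or more toward spleen in 107 of these pairs (25.4%) and passed toward spleen below 2-fold in 123. It did not pass in 158 (37.5%) and passed toward liver in 33 (7.84%). Over all 14122 tested probes, 9.13% passed toward spleen at 2-fold or more, 49.8% did not pass and 23.5% passed toward liver. A pair was counted once even where both of its probes were at 2-fold, so the shares of pairs and of single probes are on different scales. Icos, Cd80 and Cd86 have 1 probe each, so no partner shows whether another probe would give a different ratio. The Cd5 probes averaged -1.64 over 3 arrays and -0.23 over 2.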
